A study of Mus musculus with 2 samples.

Results

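Epicardial and proepicardial cells were described in droplet-based single-cell RNA profiles of the mouse at E9.5 (embryonic day 9.5). The cells were chosen by measured values. A cell was included when it had at least 2 unique molecular identifiers (UMIs, counted transcripts) of Upk3b plus Upk1b, at least 1 UMI of Tbx18, no UMI of Colec10, and less than 1% of its UMIs from 7 heart muscle genes (Tnnt2, Myl4, Actc1, Ttn, Myh6, Myh7 and Myl7). Cells with fewer than 1000 detected genes, or with mitochondrial genes above 10% of their UMIs, were not considered. Of 17699 cells the rule found 172, with 71 from the library labelled Ctrl and 101 from the library labelled cKO. In all, 16780 cells passed the filter on genes and mitochondrial UMIs and are called kept cells.

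The proepicardium is a cluster of mesothelial cells on the septum transversum, close to the venous pole of the heart. Its cells reach the heart surface and spread over it as the epicardium, an epithelial sheet from which some cells later enter the heart wall by an epithelial-mesenchymal transition (EMT) and give rise to fibroblasts and mural cells of vessels. Wt1, Tbx18 and Tcf21 encode transcription factors used to mark these cells, Upk3b and Upk1b encode uroplakins of mesothelial membranes, and Aldh1a2 encodes an enzyme that makes retinoic acid. At E9.5 this cell layer is beginning to reach the heart.

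Both groups were Swiss Webster embryos that carried Mesp1Cre, which acts in early mesoderm, and Rosa26-GFPflox/+, which marks the cells that Cre has acted on. The group labelled cKO also carried Tbx1flox/flox, and the study gives wild-type Tbx1 for the group labelled Ctrl. Pharyngeal apparatus and heart were dissociated with trypsin, and live GFP-positive cells were sorted, so the sort was set to leave out cells that Mesp1Cre had not marked. Each group had 1 library from pooled embryos. The study's sample table gives a slightly later somite stage for the cKO embryos, so genotype and stage cannot be told apart. Since a group is 1 library, the genotypes could not be compared by a test, and what follows describes these libraries. All intervals are 95% intervals and cover counting error only.

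The library labelled Ctrl held 7418 cells and 132017331 UMIs, and the library labelled cKO 10281 cells and 162874391 UMIs. Kept cells had medians of 17308 and 14684 UMIs. The epicardial and proepicardial cells were deeper. A cell had a median of 20033 UMIs and 4610 genes in the library labelled Ctrl and of 18251 UMIs and 4300 genes in the other, and the sums were 1775784 and 2325505 UMIs. Levels are UMIs of a gene per 1000000 UMIs summed over the cells of a group (CPM). In these sums a count of 0 allows a level of up to 1.69 and 1.29 CPM. The libraries shared 15 cell barcodes, none of them among the epicardial and proepicardial cells.

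Tbx1 (chr16:18580979-18590671 in GRCm38), the gene with loxP sites in the cKO embryos, was low in these cells and did not follow the labels. Its level was 8.45 CPM (4.73 to 13.9) in the library labelled Ctrl and 18.5 CPM (13.4 to 24.9) in the library labelled cKO. UMIs were found in 12 of 71 and 16 of 101 cells, and 1 cell gave 20.9% of them in the library labelled cKO. In all other kept cells it was 27.2 and 44.4 CPM in the same order. A count of 3′ ends does not separate an intact transcript from a recombined one. The log2 ratio of 1.13 (0.25 to 2.08) in the epicardial and proepicardial cells turned to −0.16 without cells that held both Xist and Y-linked UMIs, to −0.60 without doublets called by Scrublet and to −0.19 when cells were thinned to 5000 UMIs, so no direction is drawn from it. The libraries are therefore called by their labels throughout.

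The genes of the rule had the following values, which describe the choice. Upk3b (chr5:136038496-136044993) was at 128 CPM (112 to 146) in the library labelled Ctrl and 128 CPM (114 to 144) in the library labelled cKO. A single cell held a median of 3 Upk3b UMIs in each library and at most 8 and 9. Upk1b (chr16:38773182-38800203) was at 7.88 CPM (4.31 to 13.2) and 23.2 CPM (17.4 to 30.3), with a UMI in 11 of 71 and 37 of 101 cells. Thus most cells entered by Upk3b. Tbx18 (chr9:87702800-87731260) had a median of 4 UMIs per cell in each library, with a range of 1 to 23 and 1 to 21. The muscle genes took a median of 0.0461% and 0.0990% of a cell's UMIs, and at most 0.678% and 0.845%.

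Cells on both sides of the limits of the rule were described once. In the library labelled Ctrl, 27 members had exactly 2 uroplakin UMIs and 57 cells outside had 1 and met the other conditions. In the library labelled cKO the numbers were 38 and 62. Wt1 was at 90.5 and 62.2 CPM in the members with exactly 2 uroplakin UMIs and 103 and 72.9 CPM in the cells just outside, and Itga4 at 68.3 and 43.5 CPM and 93.9 and 109 CPM. The cells just outside this limit therefore held no less Wt1 or Itga4 than the members just inside it. A further 86 and 89 cells had enough uroplakin UMIs and no Tbx18 UMI. These held Upk3b at 143 and 174 CPM, Wt1 at 54.6 and 52.9 CPM and Itga4 at 1.62 and 0.629 CPM, whereas the 18 and 20 members with exactly 1 Tbx18 UMI held Itga4 at 2.50 and 25.9 CPM. Colec10 kept out 5 and 2 cells and the muscle genes 2 and 4. No cell that failed the filter on genes or mitochondrial UMIs met the rule.

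The label was checked with markers that the rule did not use. Wt1 (chr2:105126529-105173614) had a UMI in 58 of 71 and 78 of 101 cells, so it was not seen in 13 and 23 cells at this depth. Its level was 119 CPM (104 to 137) and 76.5 CPM (65.7 to 88.7), against 12.03 and 8.24 CPM in all other kept cells. Tcf21 had a UMI in 56 and 81 cells, Lrrn4, a mesothelial membrane protein, in 55 and 64, Bnc1, a basonuclin zinc finger protein of mesothelium, in 37 and 42, and Sema3d, a secreted semaphorin, in 39 and 48. Aldh1a2 had a UMI in 34 and 36 cells and the keratin gene Krt19 in 26 and 38. Gpm6a was at 2.82 and 5.16 CPM. No Msln UMI was found, and this marker of later mesothelium was therefore at or below 1.69 and 1.29 CPM.

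Each cell was then thinned to 5000 UMIs to compare shares of cells with a UMI at equal depth. All 71 and 101 members were deep enough. Wt1 was found in 45.1% (33.2 to 57.3) and 32.7% (23.7 to 42.7) of the members. Endothelial cells, taken as a type without it, gave 0.639% and 0% at the same depth, and their unthinned medians were 18071 and 15296 UMIs. Itga4 was found in 28.2% (18.1 to 40.1) and 26.7% (18.4 to 36.5) of the members and in 4.47% and 2.45% of endothelial cells, 0% and 0% of heart muscle cells and 10.9% and 10.5% of the cells with Shox2 and Sfrp5 described next. Lrrn4 was found in 23.9% and 22.8% of the members and 0.319% and 0.699% of endothelial cells. The markers were shared with neighbouring cells. Wt1 was found in 46.3% and 40.6% of the cells with Colec10 and Wt1, which were selected for it, and in 17.2% and 13.4% of the cells with Shox2 and Sfrp5. Tcf21 was found in 52.1% and 50.5% of the members, 42.2% and 35.8% of the Shox2 and Sfrp5 cells, 35.8% and 29.0% of the cells with Colec10 and Wt1, also described next, and 5.11% and 4.20% of endothelial cells. Sema3d was found in 19.7% and 17.8% of the members and 14.1% and 11.6% of the Shox2 and Sfrp5 cells, and Bnc1 in 22.5% and 16.8% of the members, 7.29% and 2.27% of the Shox2 and Sfrp5 cells and 16.4% and 7.25% of the Colec10 and Wt1 cells. Tcf21 and Sema3d alone therefore do not set the members apart from these cells. Krt19 was found in 12.7% and 23.8% of the members and in 32.3% and 24.0% of heart muscle cells. It does not set the members apart from heart muscle. Aldh1a2 was found in 22.5% and 19.8% of the members. Its shares were 7.81% and 6.82% in the Shox2 and Sfrp5 cells and 11.9% and 1.45% in the Colec10 and Wt1 cells. Unthinned, 81.7% and 77.2% of the members had a Wt1 UMI.

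Other kept cells were set beside the members by rules on UMIs. There were 67 and 69 cells with Colec10 and Wt1, a septum transversum profile, and 192 and 354 cells with Shox2 and Sfrp5, a sinus venosus profile. Heart muscle cells, with at least 5% of UMIs from the muscle genes, numbered 66 and 168, and endothelial cells, with at least 3 UMIs of Cdh5 plus Pecam1, numbered 315 and 293. Tbx18 was high in members and in the Shox2 and Sfrp5 cells, where it reached 203 and 155 CPM, and low in the Colec10 and Wt1 cells at 11.6 and 24.4 CPM. Wt1 showed the other order, with 96.0 and 71.8 CPM in the Colec10 and Wt1 cells, which that rule selected for it, and 45.1 and 27.2 CPM in the Shox2 and Sfrp5 cells. Upk3b in the Colec10 and Wt1 cells was 34.2 and 43.0 CPM, above the 3.72 and 4.10 CPM of the Shox2 and Sfrp5 cells. Itga4 was highest in the members among the 5 groups in both libraries, with the Shox2 and Sfrp5 cells next at 53.8 and 39.6 CPM.

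**Figure D1:**
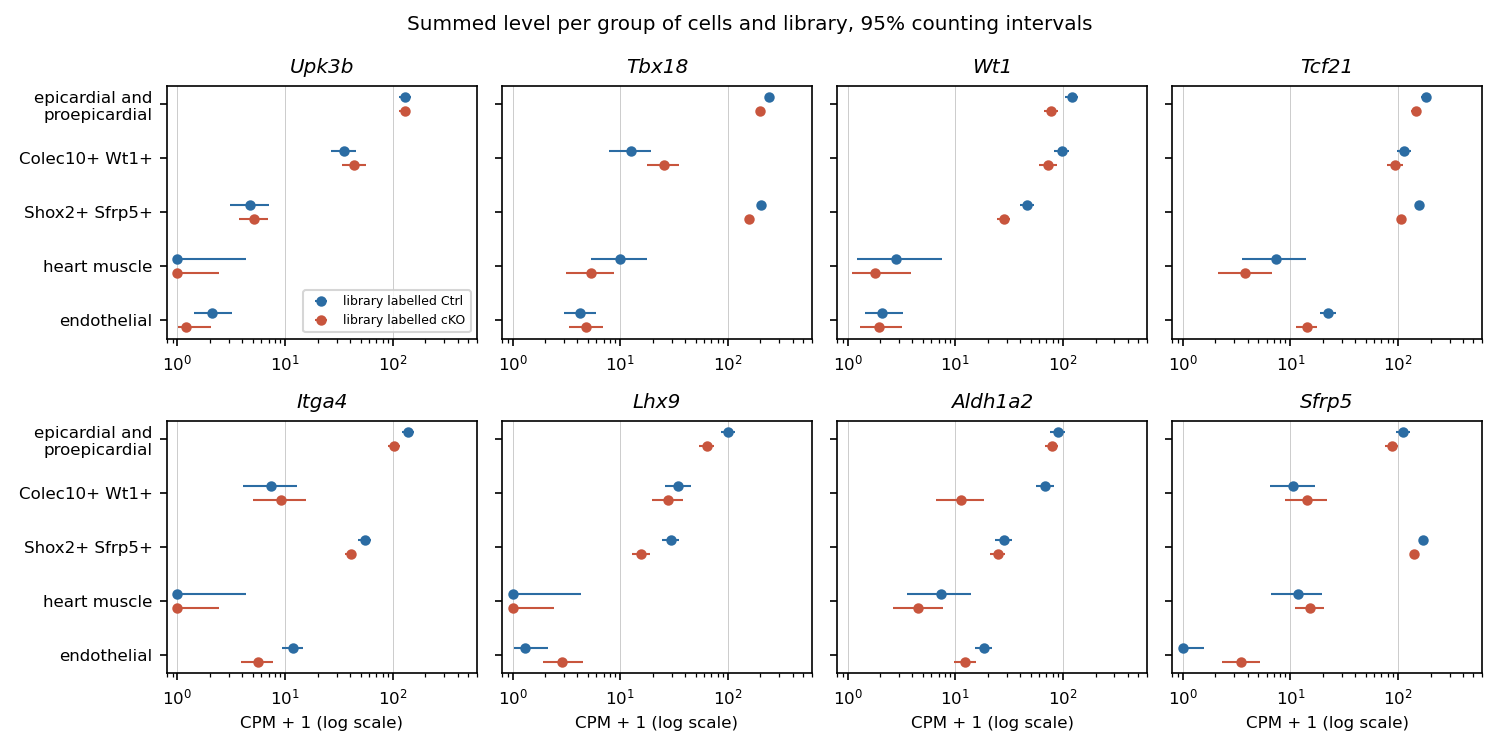
Level of 8 genes (CPM plus 1, log scale) in 5 groups of cells, with points for the summed level in each library and bars for 95% Poisson intervals. Upk3b, Itga4 and Lhx9 are highest in the epicardial and proepicardial cells in both libraries, Tbx18 and Sfrp5 are shared with the Shox2 and Sfrp5 cells, and Wt1 with the Colec10 and Wt1 cells. The rules selected for Upk3b and Tbx18 in the epicardial and proepicardial cells. They also selected for Wt1 in the Colec10 and Wt1 cells and for Sfrp5 in the Shox2 and Sfrp5 cells.

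The genes that led in the members over all other kept cells, by the smaller of the log2 ratios in the libraries, form a description because the cells were chosen from their counts. Genes of the rule, Upk3b and Tbx18 among them, were left out of this ranking. Itga4 (chr2:79255426-79333114), the alpha 4 integrin subunit that binds fibronectin and Vcam1, was first among the rest. It was at 138 CPM (121 to 156) and 101 CPM (88.5 to 115), with log2 ratios of 3.91 and 3.49. Lhx9 (chr1:138825186-138848839), a LIM homeobox transcription factor, was at 99.7 CPM (85.5 to 115) and 62.8 CPM (53.0 to 73.8), with log2 ratios of 4.69 and 3.14. Stk26, a serine/threonine kinase, was at 230.3 and 186 CPM, with ratios of 3.35 and 3.44, and Wt1 followed with 3.31 and 3.22. All 4 were at least 8-fold higher in the members than in other kept cells in both libraries.

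Sfrp5, a secreted Wnt inhibitor of the venous pole, was at 110.4 and 86.9 CPM (log2 ratios 2.98 and 2.50). Gucy1a3, a subunit of soluble guanylate cyclase, was at 112 and 117 CPM, and Podxl, a sialomucin of apical membranes, at 92.4 and 70.5 CPM. Gata4, a transcription factor of heart and septum transversum, was at 101 and 77.0 CPM with ratios of 1.93 and 1.70. After thinning it was found in 39.4% and 37.6% of the members, 44.8% and 34.8% of the Colec10 and Wt1 cells and 39.6% and 32.1% of the Shox2 and Sfrp5 cells, so it does not set the members apart from those cells. Sdc4, a heparan sulphate proteoglycan of the cell surface, was at 50.1 and 53.3 CPM, and P3h4, a protein that takes part in collagen modification, at 77.1 and 126 CPM. Frmd4b, Mgarp, Smim1, Tmem108 and Itm2a completed the 15, with Itm2a the most abundant at 438 and 384 CPM.

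Start-site windows of these genes were read from RefSeq (GRCm38.p6, 250 bases before to 50 after the start), and 10 of the 15 leading genes had a window. The windows of Upk3b, which chose most cells, of Itga4 and Lhx9, which led and divide the members, and of Sfrp5 are shown 5′ to 3′ on the strand of the gene. Capitals mark AGATAA, letters bound by GATA factors, and GGAATG, letters bound by TEAD factors, each searched on both strands, and the motifs do not overlap here. They lie at chr5:136038246-136038545 on the plus strand for Upk3b, chr2:79255176-79255475 on the plus strand for Itga4, chr1:138842395-138842694 on the minus strand for Lhx9 and chr19:42202203-42202502 on the minus strand for Sfrp5. The Lhx9 window lies inside the interval given above for the gene, at an internal start, and a window at its outer start was not read.
Upk3b: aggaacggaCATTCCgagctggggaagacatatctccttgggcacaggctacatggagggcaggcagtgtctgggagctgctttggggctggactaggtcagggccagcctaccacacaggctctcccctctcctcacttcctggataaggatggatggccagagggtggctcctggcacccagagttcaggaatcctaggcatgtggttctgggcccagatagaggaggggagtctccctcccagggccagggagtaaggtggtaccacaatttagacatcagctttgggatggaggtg
Itga4: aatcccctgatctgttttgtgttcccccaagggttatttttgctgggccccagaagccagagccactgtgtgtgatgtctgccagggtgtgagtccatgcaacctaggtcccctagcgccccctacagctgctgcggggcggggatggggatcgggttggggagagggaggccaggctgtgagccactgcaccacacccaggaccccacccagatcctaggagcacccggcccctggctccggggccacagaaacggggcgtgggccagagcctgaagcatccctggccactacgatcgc
Lhx9: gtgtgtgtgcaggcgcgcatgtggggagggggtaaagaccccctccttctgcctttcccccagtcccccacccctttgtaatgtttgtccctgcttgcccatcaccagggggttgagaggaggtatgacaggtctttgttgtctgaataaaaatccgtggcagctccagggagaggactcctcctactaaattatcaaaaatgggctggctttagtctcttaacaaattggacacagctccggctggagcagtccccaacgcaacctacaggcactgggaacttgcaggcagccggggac
Sfrp5: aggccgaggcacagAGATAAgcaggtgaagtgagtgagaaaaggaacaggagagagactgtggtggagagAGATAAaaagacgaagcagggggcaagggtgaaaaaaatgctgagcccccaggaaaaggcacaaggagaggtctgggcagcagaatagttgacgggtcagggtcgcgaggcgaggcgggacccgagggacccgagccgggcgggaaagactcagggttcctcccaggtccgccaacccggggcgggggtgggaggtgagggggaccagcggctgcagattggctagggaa
The Upk3b window holds 1 match to GGAATG, on the opposite strand, and the Sfrp5 window 2 to AGATAA. The Itga4 and Lhx9 windows hold neither. Of the leading genes with a window, 3 hold AGATAA and 1 holds GGAATG in at least 1 window. Among all 32851 windows of this length, 11.2% hold AGATAA and 14.7% hold GGAATG on either strand. A match is a description of the letters only.

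The members were not uniform in either library. Itga4 and Lhx9 were not detected in most members and high in others. Itga4 had no UMI in 41 of 71 and 56 of 101 cells and up to 25 and 22 UMIs in a cell. Lhx9 had no UMI in 41 and 54 cells and up to 23 and 10. After thinning, 13 of the 20 cells with Itga4 in the library labelled Ctrl also had Lhx9, against 8 of the 51 without Itga4. In the library labelled cKO the numbers were 14 of 27 and 14 of 74. Aldh1a2 showed the reverse, with a UMI in 2 of 20 cells with Itga4 and 14 of 51 without it in the library labelled Ctrl, and in 1 of 27 and 19 of 74 in the other.

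**Figure D2:**
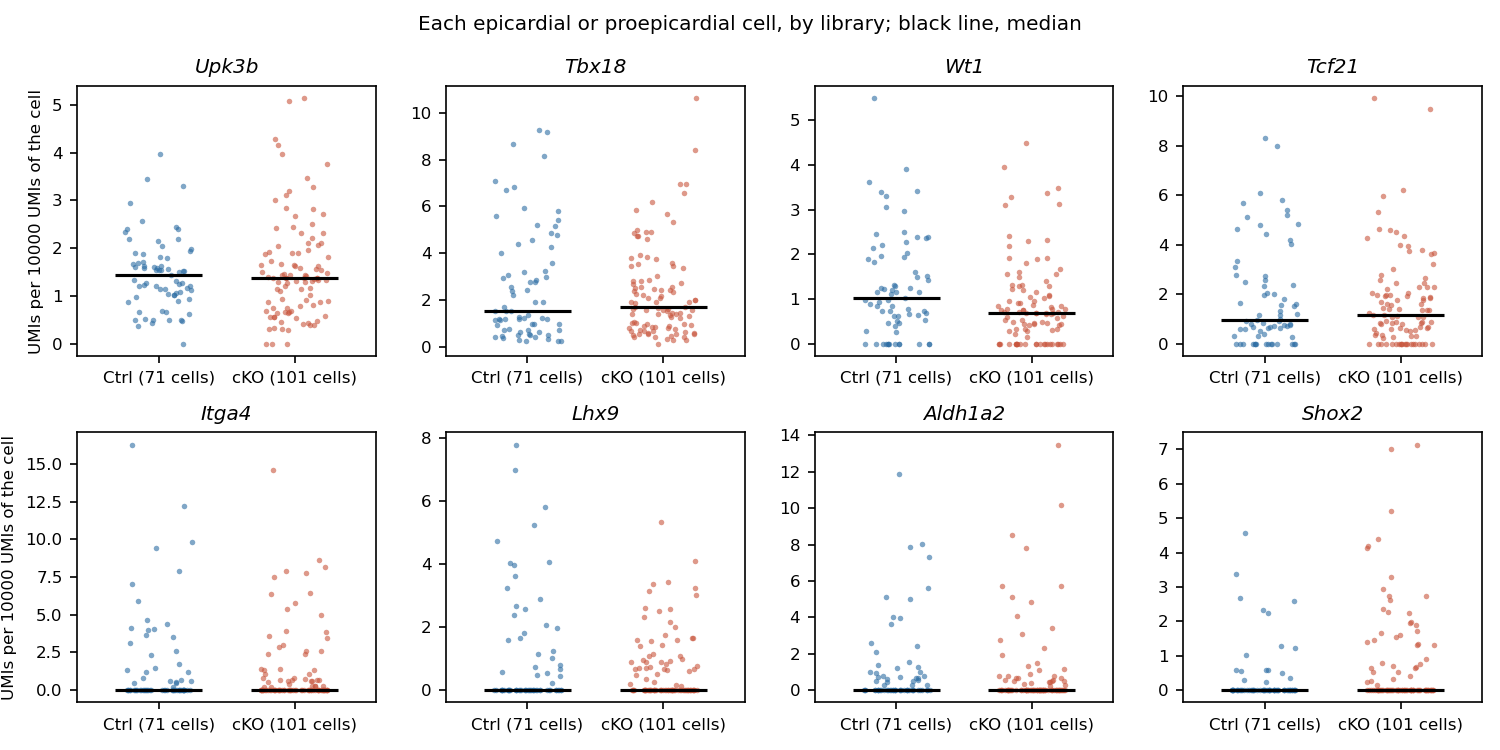
UMIs of 8 genes per 10000 UMIs in each of the 71 and 101 cells (points) by library, with the median as a black line. Upk3b and Tbx18, which chose the cells, are spread around medians above 0, whereas Itga4, Lhx9, Aldh1a2 and Shox2 have medians of 0 and a tail of high cells in each library.

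After these values were seen, the members were divided into cells with at least 2 UMIs of Itga4 plus Lhx9 and the others. The first group held 30 and 41 cells and the second 41 and 60, and depths were similar, with medians of 20571 and 20033 UMIs in the library labelled Ctrl and 18694 and 17626.5 in the library labelled cKO. The name of the members is given by the rule, and most of them fall in the second group. After thinning, Tcf21 was found in 31.7% and 33.3% of the second group, against 42.2% and 35.8% of the Shox2 and Sfrp5 cells. Wt1 was found in 43.9% and 26.7%, against 17.2% and 13.4%. Tcf21 therefore does not bear out the name for the second group. Of 3004 other genes read, 15 were at least 2-fold higher in the first group in both libraries (0.499%) and 5 at least 2-fold lower (0.166%). Because the division was made on these counts, the values describe it and support nothing further. A gene was read when its mean over the libraries was at least 50 CPM and it had at least 30 UMIs.

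Sox9, a transcription factor of chondrogenic and epithelial progenitors, was at 399.7 CPM with Itga4 or Lhx9 and 58.0 CPM in the other members of the library labelled Ctrl, a log2 ratio of 2.79 (2.38 to 3.22). In the library labelled cKO it was at 296 and 70.7 CPM. Tcf21, required for the fibroblast lineage of the epicardium, was at 322 and 69.0 CPM in the library labelled Ctrl and 245 and 77.3 CPM in the other. Tbx18, although every member carries it, was also higher with Itga4 or Lhx9, with log2 ratios of 1.34 and 1.04. Igfbp5, a binding protein of insulin-like growth factors, was at 1168 against 534 CPM and 1109.7 against 464 CPM. The mesothelial gene Lrrn4 (log2 ratios 1.09 and 1.34) and Gucy1a3 (1.15 and 1.27) lay on the same side in both libraries. Ebf1, a transcription factor of mesenchyme, was at 133 against 22.0 CPM and 117 against 37.2 CPM, and Cthrc1, a secreted collagen-repeat protein, at 137 against 19.996 CPM and 96.4 against 38.7 CPM. The other members of the 15 were Mgarp, Ralb, Atp1b1, Flrt2, Fam213a, Celf2 and 1190002N15Rik. Without the cell that gave most UMIs of the gene in each library, 12 of the 15 were past 2-fold in both, and Celf2 (0.93), Tbx18 (0.96) and 1190002N15Rik (0.9996) were not in the library labelled cKO.

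The 5 genes on the other side were Aldh1a2, Cxcl12, Prtg, Angpt1 and the muscle gene Actc1, which the rule limits. When the cell that gave most UMIs of a gene was left out of each library, a setting chosen after seeing the data, Aldh1a2 and Cxcl12 were still past 2-fold in both libraries. Actc1, Prtg and Angpt1 were not, with log2 ratios of −0.92, −0.92 and −0.93 in the library labelled cKO, where 1 cell had given 33.1% of the Actc1 UMIs. Aldh1a2 was at 20.6 CPM with Itga4 or Lhx9 and 140.0 CPM in the other members of the library labelled Ctrl, a log2 ratio of −2.76 (−3.61 to −2.01). In the library labelled cKO it was at 31.4 and 109 CPM, with a ratio of −1.80 (−2.42 to −1.23). Cxcl12, a chemokine of mesenchyme, was at 27.1 and 99.98 CPM and at 24.1 and 61.3 CPM in the same order. Prtg, a membrane protein of early mesoderm and neural tissue, was at 87.7 against 209.96 CPM in the library labelled Ctrl and 52.4 against 106 CPM in the other, and Angpt1, a ligand of the endothelial receptor Tek, at 42.5 against 108 CPM and 38.8 against 78.0 CPM. The homeobox gene Meis2 had log2 ratios of −1.28 and −0.73, and Nr2f1, an orphan nuclear receptor, of −1.05 and −0.90. Foxd1, a forkhead gene that was not read because its mean was below 50 CPM, was at 1.29 against 49.99 CPM and 11.5 against 83.1 CPM.

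Aldh1a1, another retinaldehyde dehydrogenase, lay opposite to Aldh1a2. It was at 18.1 CPM with Itga4 or Lhx9 in the library labelled Ctrl, where the other members held 1 UMI, and at 13.6 and 2.19 CPM in the library labelled cKO, from 31 UMIs in all. Upk3b and Wt1 stayed within 2-fold across the division in both libraries. The log2 ratio of Upk3b was 0.10 (−0.29 to 0.49) and −0.07 (−0.41 to 0.28), and that of Wt1 0.29 (−0.12 to 0.69) and 0.49 (0.05 to 0.93). For Sema3d the ratios were 2.04 and 1.16 and for the keratin gene Krt19 2.66 and 1.41, whereas for Gata4 they differed in sign (0.67 and −0.05).

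**Figure D3:**
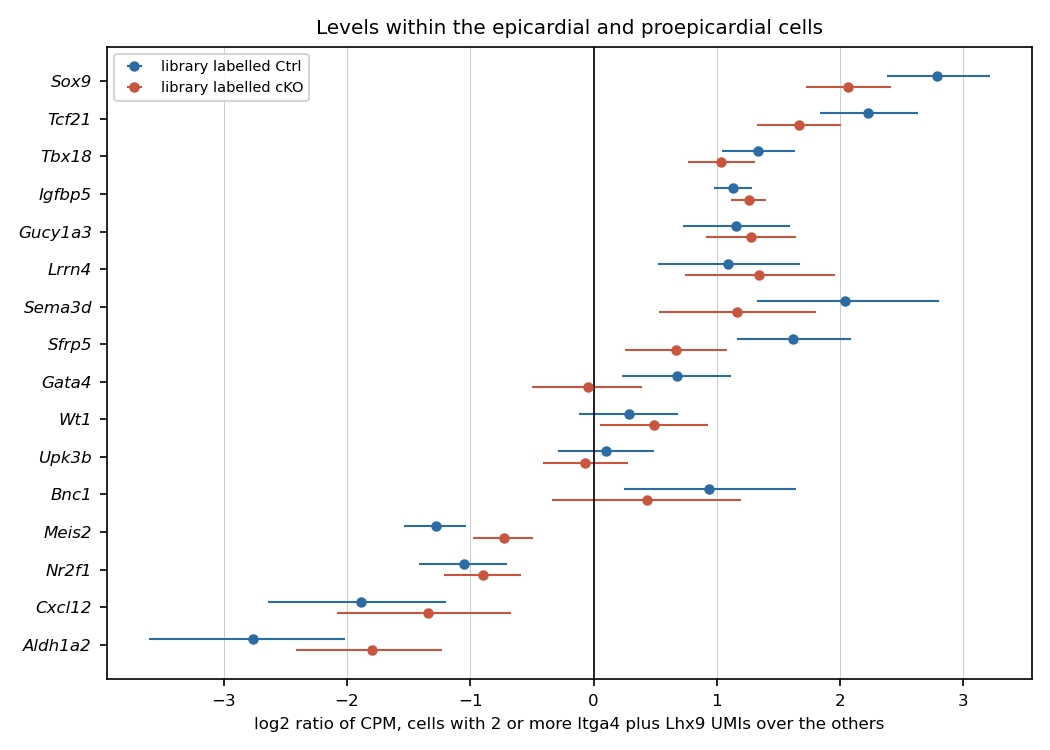
Log2 ratio of CPM between members with at least 2 UMIs of Itga4 plus Lhx9 and the other members (x axis) for 16 genes in each library, with 95% counting intervals as bars. Sox9, Tcf21, Tbx18, Igfbp5, Gucy1a3, Lrrn4 and Sema3d lie above 0 and Meis2, Nr2f1, Cxcl12 and Aldh1a2 below 0 in both libraries, and Upk3b lies near 0.

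Markers of neighbouring cell types were read across the members as whole lists. Of 8 endothelial genes, 8 had a UMI in each library, but Cdh5 was at 1.13 and 3.01 CPM and Pecam1 at 2.25 and 0.43 CPM. The largest part of the list's summed level of 109.8 and 119 CPM came from Egfl7, at 55.2 and 75.7 CPM. The 8 hepatoblast genes summed to 0.563 and 3.87 CPM, with Afp and Hnf4a at 0, and the 7 epithelial genes to 2.25 and 2.58 CPM. The 6 neural crest genes summed to 14.1 and 6.45 CPM. The 14 heart muscle genes outside the rule summed to 1389 and 1359.7 CPM, most of it from the broadly expressed Tpm1 at 938 and 909 CPM, while the ventricular light chain gene Myl2 was at 3.38 and 2.15 CPM.

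Of these lists the erythroid one differed most between the libraries. It summed to 1.69 and 163 CPM in the members and to 10.2 and 10690.3 CPM in all other kept cells. No haemoglobin UMI was found in the members of the library labelled Ctrl, and Hbb-y, an embryonic beta globin, was at 79.1 CPM in the other. In that library 6 of 101 members had no UMI of the list, and the median over the members was 139 CPM. The part of such RNA from outside the cell in any value here was not tested. The sinus venosus list, led by Shox2, summed to 177 and 207 CPM and the septum transversum list, in which Lhx9 is the largest gene, to 184 and 163 CPM.

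The epicardial and proepicardial cells made up 1.01% (0.792 to 1.28) of kept cells in the library labelled Ctrl and 1.03% (0.843 to 1.25) in the library labelled cKO. The difference was 0.0202 percentage points with an approximate interval of −0.300 to 0.324. Members with at least 2 UMIs of Itga4 plus Lhx9 were 0.428% and 0.420% of kept cells, and the other members 0.585% and 0.614%. With the rule applied to cells thinned to 5000 UMIs, 8 and 19 cells were left, and the shares were 0.115% and 0.196%, further apart than unthinned. The rule thus depends on depth, and no order is drawn from the shares. These intervals are over the cells of 1 library each and do not speak of a difference between genotypes. The shares also rest on the dissection and the sort.

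Some members carried signs of 2 cells in 1 droplet. Xist together with Y-linked UMIs was found in 11.3% of the members labelled Ctrl (8 of 71) and 23.8% of those labelled cKO (24 of 101), against 6.02% and 7.07% of kept cells. The difference between the member shares was 12.5 percentage points (0.611 to 23.2). These cells had medians of 41836 and 33086.5 UMIs. Without them, 63 and 77 members were left, 0.957% and 0.848% of kept cells without both. Scrublet, a doublet caller set to 0.8% per 1000 cells, marked 9 and 25 members, and 62 and 76 cells were left. The marked members were 12.7% and 24.8% of the members, against 5.69% and 8.18% marked among all kept cells.

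Most genes had close levels in the members of both libraries. Of 3006 genes read, 11 were at least 2-fold higher in the library labelled cKO (0.366%) and 8 at least 2-fold lower (0.266%), and the median log2 ratio was −0.03. The counts were larger in settings with fewer cells or UMIs, with 21 higher and 18 lower without doublets called by Scrublet, 43 and 48 with members thinned to 5000 UMIs, 29 and 26 in members with Xist and no Y-linked UMI, and 48 and 62 in those with Y-linked UMIs and no Xist. Without members that held both Xist and Y-linked UMIs, 19 were higher. Of the 11 higher and 8 lower genes, 9 were also past 2-fold in the same direction in all other kept cells, where 7 of the 3006 genes were at least 2-fold higher (0.233%) and 6 at least 2-fold lower (0.2%). When each ratio was taken relative to that in all other kept cells, no gene was at least 2-fold higher (0%) and 1 was at least 2-fold lower (0.0333%), which was Lhx9.

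The genes lower in the library labelled cKO included a matrix protease and an adhesion protein. Adamts1, a secreted protease that cleaves versican, was at 103 CPM and 35.3 CPM, for a log2 ratio of −1.55 (−1.94 to −1.16). In all other kept cells the ratio was −1.04. Alcam, an immunoglobulin adhesion protein, was at 309 and 151 CPM, which gave a log2 ratio of −1.04 (−1.23 to −0.84). Its ratio in all other kept cells was −0.30, so the difference from the other cells was −0.73 (−0.93 to −0.54). This interval leaves out the counting error of the other cells. Alcam was detected in 56 of 71 and 78 of 101 cells. After thinning it was found in 52.1% and 44.6% of the members. In the Colec10 and Wt1 cells the shares were 59.7% and 58.0%, and in the Shox2 and Sfrp5 cells 63.5% and 56.0%. It therefore does not set the members apart from those cells. Across the alternatives the Alcam ratio ran from −2.29 to −0.27. The ratio was −0.27 in members with Xist and no Y-linked UMI and −1.503 in those with Y-linked UMIs and no Xist. Without members that held both, the ratios of Alcam, Amotl2 and Pum2 were −0.86, −0.85 and −0.87, inside 2-fold.

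Atad2, a chromatin ATPase of dividing cells, was at 190.3 and 76.1 CPM (log2 ratio −1.32, −1.59 to −1.06), against −0.99 in other cells. Amotl2, an angiomotin that binds Yap1, was at 72.6 and 35.7 CPM (log2 ratio −1.03, −1.44 to −0.62), against −0.92 in other cells. The RNA-binding genes Tnrc6a and Pum2 had log2 ratios of −1.12 and −1.001, and Nme2, a nucleoside diphosphate kinase, of −1.02. The lowest ratio was that of Tpm3-rs7, a gene related in sequence to Tpm3, which went from 199.9 to 9.46 CPM (−4.40) and in the other cells by −4.59. Its reads can be split with those of its near copy, so it is given as uncertain.

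On the higher side, Ubb, a ubiquitin gene, was at 113 and 988 CPM, a log2 ratio of 3.13, and its ratio in all other kept cells was 3.14. Ubb shares sequence with other ubiquitin genes and is likewise uncertain. Phgdh, the first enzyme of serine synthesis, was at 67.6 and 147 CPM (log2 ratio 1.13, 0.82 to 1.44), with 1.43 in other cells. Relative to those cells the Phgdh ratio was −0.30, and it also turned below 0 with the rule set after thinning. The histone genes Hist1h2ap and Hist1h2ae were at 44.5 and 149 CPM and 46.2 and 101 CPM. Histone genes of this cluster are near copies of each other, and their values are uncertain for that reason. Ndufv1, a subunit of respiratory complex I, was at 37.2 and 81.7 CPM (log2 ratio 1.14, 0.73 to 1.56), against 0.59 in other cells. Its ratio was 0.94 without doublets called by Scrublet and ran from 0.42 to 1.32 across the alternatives.

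The rest of the genes past 2-fold were outside the rule for names, and were Rpl29, mt-Nd4l, Rps26-ps1, Gm10260, Gm10076 and the muscle gene Actc1. Rpl29, with 28.7 and 998 CPM, had a ratio of 5.12 in the members and 5.30 in all other kept cells. Actc1, one of the genes limited by the rule, was at 52.4 and 179 CPM in the members and 419 and 808 CPM in all other kept cells, and 1 cell gave 33.1% of the UMIs of the members in the library labelled cKO. Heart muscle cells made up 0.942% and 1.72% of kept cells. The part of heart muscle RNA from outside the cell in the Actc1 value was not tested.

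**Figure D4:**
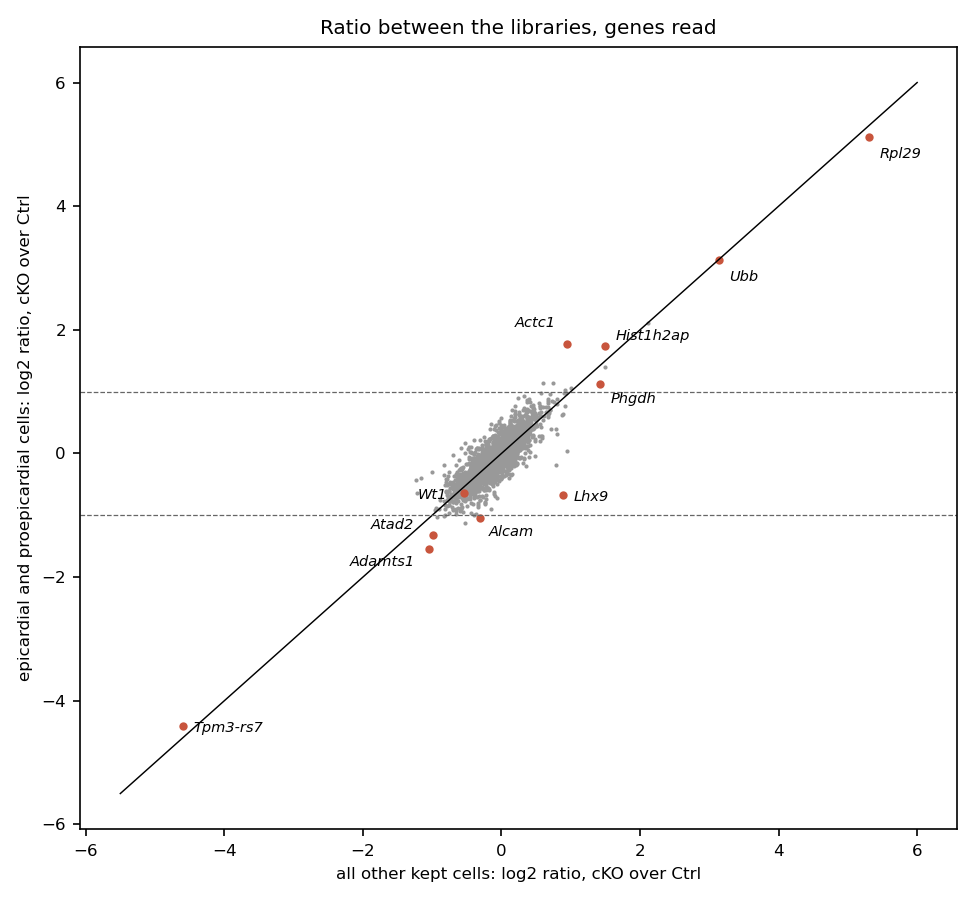
Log2 ratio of the library labelled cKO over the library labelled Ctrl for 3006 genes, in the epicardial and proepicardial cells (y axis) and in all other kept cells (x axis), with the line of equal ratios and dashed lines at 2-fold. Rpl29, Ubb and Tpm3-rs7 lie near the line, and Lhx9 lies below it with −0.67 on the y axis and 0.89 on the x axis.

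Epicardial transcription factor genes had a median below 0 in the members and in the other cells. Of 20 genes, 9 were read and none passed 2-fold, while 8 lay below 0, against 1607 of all 3006 genes read. The median log2 ratio was −0.37, against −0.42 for these genes in all other kept cells and −0.03 over all genes read in the members. Relative to the other cells the median was −0.068, so no direction particular to the members is drawn from it. Wt1 had −0.64 (−0.94 to −0.35) and Tcf21 −0.30 (−0.52 to −0.07). For the GATA factors Gata4 and Gata6, read at 101 and 77.0 CPM and 234 and 182 CPM, the log2 ratios were −0.39 (−0.70 to −0.08) and −0.37 (−0.56 to −0.17). The ratio of Gata4 turned to 0.18 in members with Y-linked UMIs and no Xist and to 0.056 with the rule set after thinning. Nr2f2, a venous and atrial nuclear receptor, was at 330.0 and 229 CPM with −0.53 (−0.70 to −0.35), and Meis2 at 407 and 289 CPM with −0.49 (−0.65 to −0.34). Meis1 had 0.01 (−0.29 to 0.31). Hand2, at 78.8 and 63.6 CPM, had −0.31 (−0.65 to 0.03).

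Some factors of the list were below the level needed to be read. Tbx5 was at 49.6 and 25.8 CPM, Bnc1 at 43.4 and 26.7 CPM, Scx at 23.1 and 26.7 CPM and Gata5 at 27.0 and 29.7 CPM. Isl1, a factor of heart progenitors, was at 21.4 and 28.0 CPM in the members and 83.7 and 53.3 CPM in all other kept cells. Nkx2-5, the heart muscle homeobox factor, was near the floor at 2.82 and 2.58 CPM.

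Genes of the mesothelial epithelium lay on both sides of 0. Of 25 genes, 8 were read, 4 had no UMI in either library, and 1, Alcam, passed 2-fold on the lower side. The median log2 ratio was −0.19, with 4 genes on each side of 0, and it was 0.14 among genes with a mean of at least 100 CPM and 0.17 in members with Itga4 or Lhx9. The keratin genes Krt8 and Krt18, partners in simple epithelia, were at 92.9 and 113 CPM and 145 and 177 CPM, with log2 ratios of 0.28 (−0.003 to 0.57) and 0.28 (0.05 to 0.51). Ezr, which links membranes to actin, had 0.52 (0.26 to 0.79) and Tjp1, of tight junctions, −0.79 (−1.06 to −0.53). Podxl had −0.39 (−0.71 to −0.07) and Lrrn4 −0.51 (−0.90 to −0.11), and the ratio of Podxl turned to 0.30 in members with Y-linked UMIs and no Xist and to 0.16 relative to all other kept cells. Ptn, a secreted heparin-binding factor, was the most abundant of the list at 868 and 868 CPM, with 0.00 (−0.10 to 0.10). No UMI of Cdh1, Upk2 or Upk3a was found.

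Few retinoic acid genes were high enough to be read. Of 17 genes, 4 were read, none past 2-fold, with a median log2 ratio of −0.09 in the members and −0.41 in all other kept cells. The median of the gene by gene differences was 0.43. Crabp2, which binds retinoic acid in the cell, was at 115 and 128 CPM and its relative Crabp1 at 73.2 and 67.9 CPM. Aldh1a2 was at 87.8 and 77.4 CPM, which gave a log2 ratio of −0.18 (−0.50 to 0.14), while its ratio in all other kept cells was −0.83. The degrading enzymes Cyp26a1, Cyp26b1 and Cyp26c1 were at 7.32 and 2.15 CPM, 1.13 and 1.72 CPM, and 0. The receptor gene Rara was at 22.0 and 20.2 CPM and Rarb at 18.6 and 14.6 CPM.

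Among 30 growth factor and receptor genes, 9 were read, none past 2-fold, and 8 lay below 0, with a median log2 ratio of −0.30 against −0.47 in all other kept cells. Over all genes read, 1607 of 3006 lay below 0. Of the ligands, Igf2 was at 252 and 295 CPM with 0.23 (0.05 to 0.40), and Tgfb2, a driver of EMT, at 173 and 146 CPM with −0.25 (−0.47 to −0.02). The binding protein gene Igfbp5 was higher in level, at 811 and 729 CPM. Of the receptors, Igf2r, which clears Igf2, had −0.86 (−1.10 to −0.62), and Nrp1, a receptor of semaphorins and Vegf, −0.47 (−0.66 to −0.28). Robo2, a Slit receptor, had −0.48 (−0.80 to −0.15).

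Vegfa, an endothelial growth factor, fell short of the mean of 50 CPM and is described only. It was at 57.4 and 22.4 CPM, which gave a log2 ratio of −1.36 (−1.87 to −0.87). Its ratio in all other kept cells was −1.42. Robo1 was at 48.4 and 18.5 CPM, a ratio of −1.39 (−1.95 to −0.84), against −0.65 in other cells. Sema3d was at 51.8 and 39.6 CPM.

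BMP and Wnt genes had medians below 0. Of 19 BMP genes, 5 were read, none past 2-fold, with a median log2 ratio of −0.34. The extremes were Bmpr1a, a BMP receptor (−0.65, −0.996 to −0.31), and Id3, a target (−0.07, −0.18 to 0.04). Of 20 Wnt genes, 4 were read, none past 2-fold (median −0.32), from Sfrp1 (−0.73, −0.92 to −0.55) to Fzd2 (−0.07, −0.34 to 0.19). None of 16 FGF genes was read. They summed to 221 and 142 CPM. Of 11 Hippo genes, 3 were read and Amotl2 alone passed 2-fold, with Tead2 at 0.05 (−0.16 to 0.26). Of 14 Hox genes, 2 were read, Hoxb4 (−0.89, −1.28 to −0.50) and Hoxb2 (−0.20, −0.47 to 0.08).

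Of 20 mesenchyme and EMT genes, 10 were read, none past 2-fold, with a median of −0.20. No direction is drawn from this median, which was 0.13 in members with Xist and no Y-linked UMI, 0.24 among genes with a mean of at least 100 CPM, 0.16 in members with Itga4 or Lhx9 and 0.14 with the rule set after thinning. The genes ran from Zeb2, a repressor that drives EMT (−0.50, −0.91 to −0.09), to Acta2, smooth muscle actin (0.76, 0.49 to 1.04). Of 26 basement membrane and matrix genes, 7 were read, none past 2-fold (median −0.34), from Itga4 (−0.45, −0.71 to −0.19) to Sparc, a matricellular protein (0.51, 0.35 to 0.67). The matrix median also turned, to 0.026 in members with Y-linked UMIs and no Xist and 0.15 relative to all other kept cells, and it was −0.10 without doublets called by Scrublet. In the sinus venosus list 1 of 8 genes was read, Shox2, a regulator of the pacemaker region. It was at 45.6 and 71.4 CPM, with a log2 ratio of 0.65 (0.25 to 1.05) against 0.25 in all other kept cells, and it had a UMI in 17 of 71 and 40 of 101 cells. Thinned, the shares were 9.86% (4.06 to 19.3) and 24.8% (16.7 to 34.3), with 0% and 1.05% in endothelial cells. In the members with Itga4 or Lhx9 alone, the thinned shares were 13.3% (3.76 to 30.7) and 43.9% (28.5 to 60.3), and in the other members 7.32% and 11.7%.

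Of the remaining lists, 3 of 14 heart muscle genes, 1 of 8 endothelial genes and 1 of 11 septum transversum genes were read, none past 2-fold. No erythroid, hepatoblast, epithelial or neural crest gene reached the mean of 50 CPM. Cell cycle genes had medians near 0. Of 22 S-phase genes, 17 were read, none past 2-fold (median −0.04), from Mcm6, a helicase subunit (−0.66, −0.92 to −0.41), to Tyms, thymidylate synthase (0.58, 0.36 to 0.81). All 22 genes of G2 and M phase were read, none past 2-fold (median 0.01), from Bub1b (−0.48, −0.85 to −0.11) to Tacc3 (0.50, 0.16 to 0.83). The latter median was −0.34 in members with Y-linked UMIs and no Xist and −0.33 with the rule set after thinning. Genes of G2 and M phase summed to 5469 and 5458 CPM in the members and 5508 and 5424 CPM in all other kept cells.

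**Figure D5:**
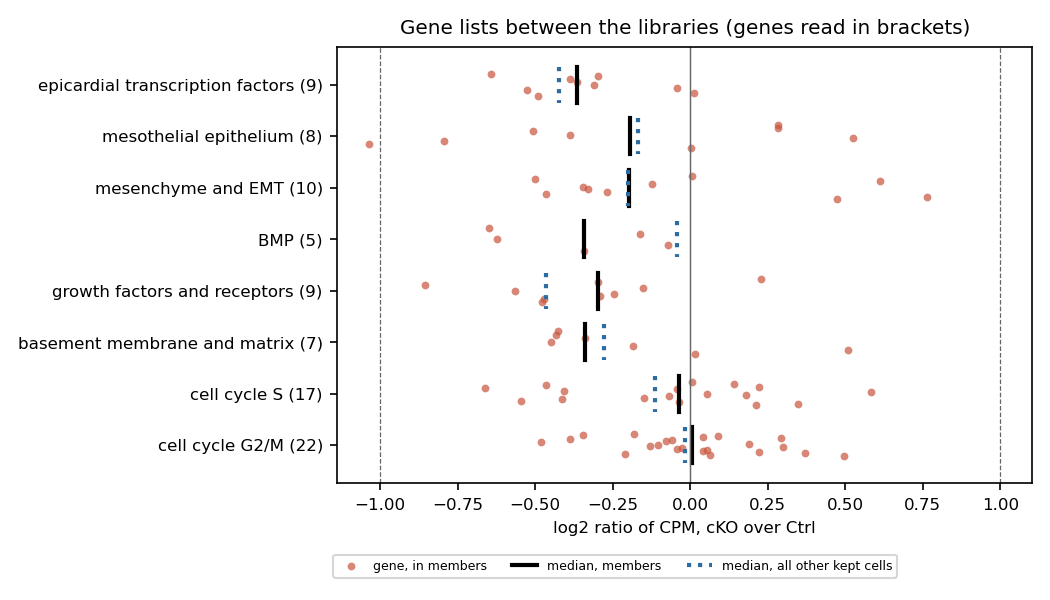
Log2 ratio of CPM, library labelled cKO over Ctrl, for each gene read (points) in the 8 lists with at least 5 genes read, with the median in the members as a solid line and in all other kept cells as a dotted line. Apart from Alcam, no gene in these lists lies beyond the dashed 2-fold lines, and the medians run from −0.37 to 0.01.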

How the data were processed

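Raw UMI counts per gene and cell barcode, as deposited, were used for 27998 genes. The authors aligned reads to mm10 and counted UMIs with Cell Ranger 3.1.0, per the submitters' processing notes, and the deposited counts hold the barcodes it called as cells, without normalization. Libraries were grouped by the genotypes in the labels. The members, gene lists and rules for naming genes were chosen with earlier results of these data known. Kept cells, the member rule and CPM were computed as given above. Sums carry exact Poisson intervals, shares Clopper-Pearson intervals, ratios exact conditional intervals, and differences of shares approximate (Newcombe) intervals. With 1 library per group no test was made, and called means a ratio of at least 2. Between libraries, named genes were up to 12 with the largest and 12 with the smallest ratio past 2-fold, leaving out genes of the member rule, Xist, Tsix and Y-linked, mitochondrial, ribosomal protein and haemoglobin genes and unnamed models. Leading genes, with the same genes left out, were the 15 with the largest ratio over other kept cells and at least 50 CPM in each library. Every gene of 4 lists (transcription factors, mesothelium, retinoic acid, growth factors) and the largest and smallest of others could be named. Genes named for the Itga4 and Lhx9 split were chosen after their values were seen. Thinning drew 5000 UMIs per cell without replacement. Alternatives were other thresholds of the rule, filters, scalings, doublet removal (Scrublet in scanpy 1.11.5) and sex of the cell. Ratios and intervals were tested on simulated data with independent Poisson counts, which leave out the clustering of UMIs by cell. Coordinates are GRCm38 from RefSeq, matched by symbol for 22794 genes. The values of 1 gene of the lists are not reported here.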

Additional observations from a re-analysis of the deposited data

Results flagged for a closer look

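The log2 ratio of Lhx9 between the libraries had opposite signs in the epicardial and proepicardial cells and in all other kept cells. In the members it was at 99.7 CPM in the library labelled Ctrl and 62.8 CPM in the other library, which gave a log2 ratio of −0.67 (−0.99 to −0.34). In all other kept cells it was at 3.85 and 7.12 CPM, a ratio of 0.89. The difference of the ratios was −1.55 (−1.88 to −1.23, without the counting error of the other cells), and it was not tested, since each group had 1 library. The ratio in the members lay between −0.92 and −0.28 in the alternatives that gave it, other than that relative to the other cells. A UMI was found in 30 of 71 and 47 of 101 members.

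Itm2a, which encodes a membrane protein, had ratios of opposite sign in members that carried Xist and no Y-linked UMI and in those with Y-linked UMIs and no Xist. In the first, 29 and 49 cells, it was at 254 and 415 CPM in the libraries labelled Ctrl and cKO. In the second, 33 and 26 cells, it was at 705 and 367 CPM. The difference of the log2 ratios was 1.65 and was not tested. In the library labelled Ctrl, Itm2a was also higher with Itga4 or Lhx9, at 728 against 212 CPM, while in the other library the values were 397 and 375 CPM.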

How the results depend on the processing

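No paired analysis was possible because each group had 1 library. The numbers of cells in the alternatives stand beside what they change. Setting the rule after thinning left 8 and 19 members, and leaving out doublets by Scrublet 62 and 76. Leaving out members with both Xist and Y-linked UMIs, ratios relative to all other kept cells and the members with Itga4 or Lhx9 were alternatives chosen after seeing the data.

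The number of genes at least 2-fold higher and lower in the library labelled cKO, 11 and 8, was 29 and 26 in members with Xist and no Y-linked UMI, 48 and 62 in those with Y-linked UMIs and no Xist, 21 and 18 without Scrublet doublets, 43 and 48 with members thinned to 5000 UMIs, and 70 and 62 with the rule set after thinning. These settings hold fewer cells or UMIs. It was 30 and 66 among genes with a mean of at least 20 CPM, 586 and 1047 among those with at least 1 UMI in each library, and 0 and 1 relative to all other kept cells. The higher count was 17 with the mean of per-cell CPM and 19 without members with both Xist and Y-linked UMIs. The lower count was 20 with at least 3 uroplakin UMIs, 23 in members with Itga4 or Lhx9, 3 at a mean of at least 100 CPM, and 5 each with 5 CPM added and with the median log2 ratio set to 0.

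Median log2 ratios of the lists moved as follows, and the cause was not tested. BMP genes (−0.34) gave −0.52 both with Y-linked UMIs and no Xist and with at least 3 uroplakin UMIs, −0.60 with at least 1 UMI in each library, −0.62 at 20 CPM, −0.12 thinned and −0.028 relative to the other cells. Mesenchyme and EMT genes (−0.20) gave 0.13 with Xist and no Y-linked UMI, 0.24 at 100 CPM, 0.16 in members with Itga4 or Lhx9 and 0.14 with the rule set after thinning. Mesothelial genes (−0.19) gave 0.14 at 100 CPM and 0.17 in members with Itga4 or Lhx9. Matrix genes (−0.34) gave 0.026 with Y-linked UMIs and no Xist, −0.10 without Scrublet doublets and 0.15 relative to the other cells. Epicardial transcription factors (−0.37) gave −0.068 relative to the other cells and −0.070 with the rule set after thinning. Genes of G2 and M phase gave −0.34 with Y-linked UMIs and no Xist and −0.33 with the rule set after thinning. The share difference was −0.308 points with Y-linked UMIs and no Xist.

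Phgdh turned to −0.11 with the rule set after thinning. Relative to all other kept cells, Tpm3-rs7 turned to 0.19, Phgdh to −0.30 and Ubb to −0.0075. Tbx1 turned to −0.60 without Scrublet doublets, −0.19 thinned and −0.16 without members with both Xist and Y-linked UMIs. With 71 and 101 cells, a gene at 50 CPM rests on about 100 UMIs per library, which sets its counting interval, and the spread between embryos was not measured.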

Other observations

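Further genes were lower in the members with Itga4 or Lhx9 in both libraries, and they were chosen after their values were seen. Tagln, an actin-binding protein of smooth muscle, was at 69.6 CPM with Itga4 or Lhx9 and 162 CPM in the other members of the library labelled Ctrl, and at 112 and 209 CPM in the library labelled cKO. Myl9, a myosin light chain of smooth muscle, was at 27.1 and 77.0 CPM and at 56.6 and 106 CPM in the same order. Cnn2, a calponin, gave log2 ratios of −1.44 and −0.97, and Pcolce, which enhances procollagen processing, −1.54 and −0.98. The Notch target Hes1 gave −0.86 and −1.06.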
